A study of Bos taurus with 10 samples.

Results

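The mitochondrial ribosomal proteins were examined in liver RNA of lactating Holstein cows as the genes whose symbol on the array begins with MRPL or MRPS and a number. Of 9155 genes named by the array annotation, 67 met this rule, 43 of the large subunit (MRPL) and 24 of the small subunit (MRPS). Within this rule, measured values entered only where a gene had several probe sets, as 14 members did. The probe set with the highest mean over the 10 arrays, both diets together, then stood for the gene. The gene family itself was chosen with earlier results of these data known. The biopsies came from primiparous and multiparous cows in week 5 of lactation. Of 40 cows, 20 were fed CLA fat, a rumen-protected supplement of conjugated linoleic acid (isomers of linoleic acid), and 20 were fed a control fat protected in the same way. Both fats made up 27.3% of a supplemental concentrate given at 630 g of dry matter a day. Feeding began 3 weeks before calving and ended in week 14 of lactation, and both groups had the same mixed ration. RNA of 4 cows was combined per pool, and each of 5 CLA pools and 5 control pools was hybridized to 1 array, so errors and p-values measure the spread between pools of 4 cows.

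Mitochondria carry their own ribosome, the mitoribosome, which makes the few respiratory chain subunits still encoded in mitochondrial DNA. Its proteins are all encoded in the nucleus, made in the cytosol and imported. The small subunit decodes the messenger RNA, and the large subunit joins the amino acids and passes the growing chain towards the inner membrane. Some members have a counterpart in the bacterial ribosome and others were added in the mitochondrial lineage. In liver, the respiratory chain that depends on this machinery supplies energy for glucose synthesis and takes up electrons from fatty acid oxidation. Both processes are in high demand in early lactation.

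Values are log2 expression as deposited, and differences are CLA minus control on that scale. Members sat slightly higher in the CLA pools: 50 were higher, 16 were lower and MRPS5 showed a difference of 0.00, with a median of 0.046, while 46.0% of all genes were higher and their median was -0.010. None of the 67 passed limma with Benjamini-Hochberg adjustment over 24016 probe sets (adjusted p under 0.05 in 0 members and in 0 probe sets overall). The lowest adjusted p of a member was 0.272, and the unmoderated test also passed 0. At an unadjusted p under 0.05, the unmoderated test counted 7 members, and its share over all genes is not given here. At the same threshold limma counted 6 members, all higher with CLA. Those 6 are 8.96% of the members, and 8.50% of all genes (8.89% of probe sets) met the same threshold, so the share was near the background. By direction, 4.35% of all genes met it higher and 4.15% lower with CLA. The 95% interval of limma stayed within 1.3-fold in either direction for 59 members and reached that size for the other 8 (MRPL15, MRPL19, MRPL32, MRPL42, MRPL44, MRPS15, MRPS18B and MRPS22). Most of the chosen probe sets therefore had differences that, at this number of arrays and in the values as deposited, were bounded at a small size. Intervals of further probe sets are not given here, and those of MRPL57 (0.23 ± 0.099 SE) and MRPL46 (-0.21 ± 0.089 SE) differed more than the chosen sets.

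**Figure D1:**
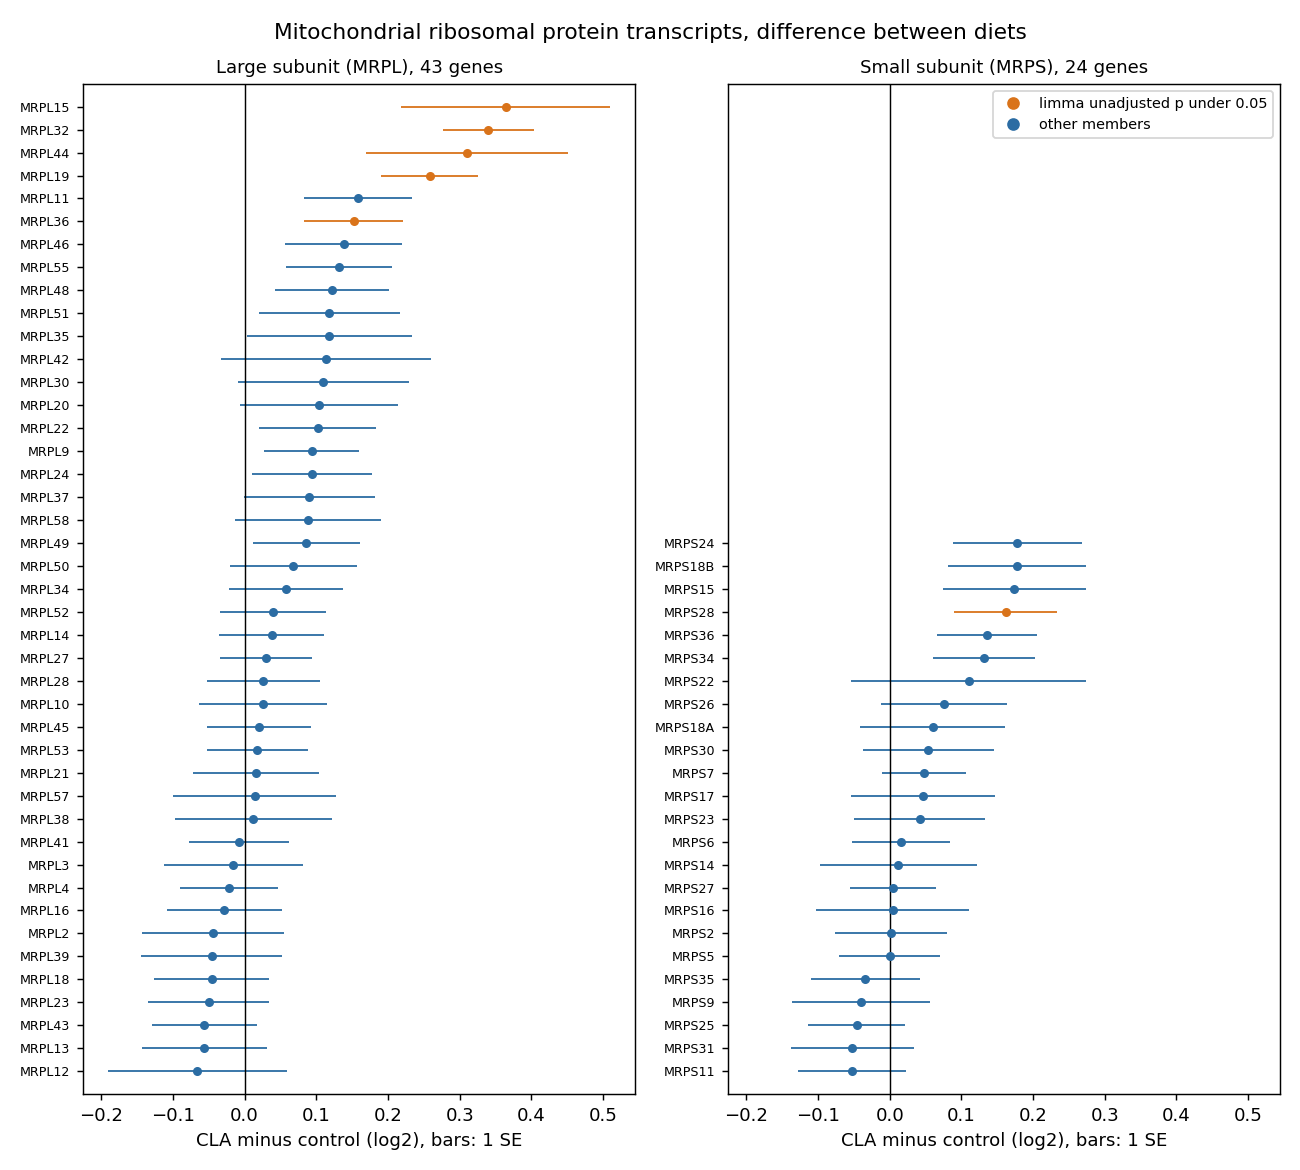
CLA minus control difference on the log2 scale (x axis) of each of the 43 large subunit and 24 small subunit genes, with bars of 1 SE from limma and n = 5 pools per group. Orange marks the 6 genes with an unadjusted p under 0.05, all on the right of zero, led by MRPL15 at 0.36 and MRPL32 at 0.34; the lowest value is that of MRPL12, -0.07.

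The number of higher members moved with single pools and with the scaling of the arrays. Without CLA pool 2 the split was 32 higher to 34 lower and the median was -0.0025, where 41.4% of all genes were higher and their median was -0.0255. Without CLA pool 5 it was 54 to 13 with a median of 0.090, against 48.2% of all genes and a median of -0.0050. Quantile normalization gave 40 higher and 27 lower (median 0.019, against 45.3% of all genes higher), cyclic loess normalization 41 and 26 (0.028, against 47.0%), and subtraction of array medians 55 and 12 (0.077, against 57.9%). Under these scalings 6, 6 and 10 members had a limma unadjusted p under 0.05, against 8.08%, 8.24% and 8.86% of all genes. As deposited, that number was 2 without CLA pool 1 (47 members higher, against 48.1% of all genes), 2 without CLA pool 2 and 11 without CLA pool 5. The share of all genes under this p was 7.31%, 8.91% and 9.14% in the same fits, and that of the members 2.99%, 2.99% and 16.4%.

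A pair of large subunit members separated the diets completely, where 1.47% of all genes lay higher in this way and 2.17% lay apart in either direction. The first, MRPL32, is a zinc-binding protein that a mitochondrial protease trims before it joins the large subunit. Its control pools read 7.26, 7.24, 7.32, 7.22 and 7.20, and its CLA pools 7.66, 7.67, 7.48, 7.54 and 7.59. Every CLA pool lay above every control pool, and the gap between the nearest pair was wider than the spread among the controls. The difference was 0.34 ± 0.064 SE (1.27-fold; limma unadjusted p = 0.000172, Benjamini-Hochberg adjusted p = 0.272). It stayed between 0.31 and 0.37 in all 20 alternative fits, with an unadjusted p of at most 0.00153.

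MRPL19, the counterpart of a bacterial protein at the interface of the subunits, was the other. The control pools gave 9.16, 9.23, 9.15, 9.19 and 9.08, and the CLA pools 9.54, 9.49, 9.37, 9.41 and 9.29. Control pool 2 and CLA pool 5 came closest to each other, and no pools overlapped. The difference was 0.26 ± 0.068 SE (limma unadjusted p = 0.00249, adjusted p = 0.360), and the unadjusted p stayed under 0.05 in each of the 20 alternative fits (at most 0.00914). MRPL32 and MRPL19 had 1 probe set each, so no second set bears on them.

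The remaining large subunit members under the unadjusted threshold overlapped between diets. MRPL15, whose bacterial counterpart binds ribosomal RNA, read 7.62, 7.66, 7.60, 7.20 and 7.47 in the control pools and 8.02, 8.31, 7.82, 7.79 and 7.43 in the CLA pools. Its difference of 0.36 ± 0.15 SE was the largest of all members, but CLA pool 5 lay below 4 of the 5 control pools. The limma unadjusted p of 0.0281 passed 0.05 without CLA pool 1 (0.0630), CLA pool 2 (0.0695) or control pool 4 (0.0735).

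MRPL44, a member with a ribonuclease-like fold near the exit of the peptide tunnel, varied widely within both diets. Control pools gave 6.65, 6.80, 6.54, 6.34 and 6.27, against 6.80, 7.27, 6.81, 6.80 and 6.47 with CLA. CLA pool 2 stood well above the rest, and CLA pools 1 and 4 matched control pool 2. The difference was 0.31 ± 0.14 SE (limma unadjusted p = 0.0481), 0.20 without CLA pool 2, and under the threshold in 3 of the 10 fits that left out a pool. MRPL36, a very small zinc-binding protein, read 7.77, 7.90, 7.76, 7.80 and 7.76 in controls and 7.90, 8.13, 7.95, 7.88 and 7.89 with CLA. All CLA pools lay above the control mean of 7.80, although control pool 2 was above CLA pools 4 and 5. Its difference of 0.15 ± 0.070 SE (limma unadjusted p = 0.0490) likewise kept its call in 3 of those 10 fits and was 0.11 without CLA pool 2.

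**Figure D2:**
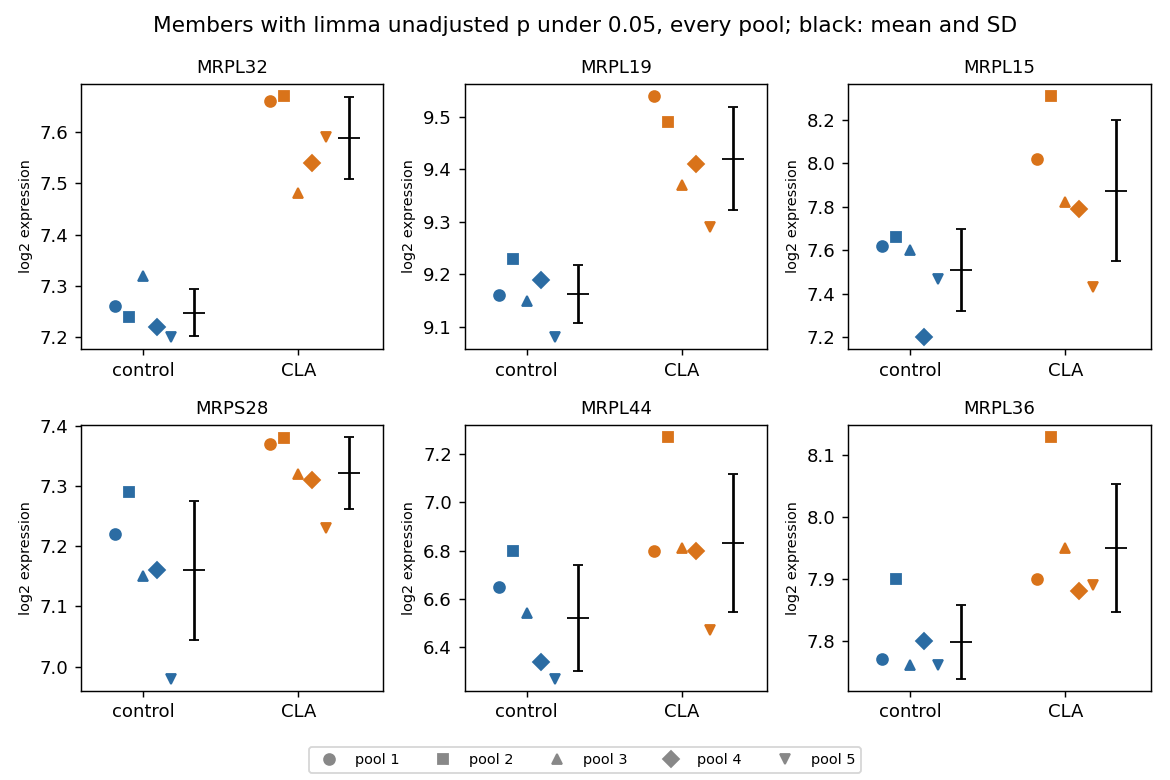
Log2 expression in every pool for the 6 members with a limma unadjusted p under 0.05, control in blue and CLA in orange, 1 symbol per pool number and the group mean with SD in black (n = 5). The diets do not overlap for MRPL32 and MRPL19, and CLA pool 2 is the highest or next to highest CLA pool in each panel.

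A trio of proteins forms the stalk that draws translation factors to the large subunit and its base. MRPL11, at the base, ran from 9.65 to 9.93 in control pools and from 9.89 to 10.11 in CLA pools. The difference of 0.16 ± 0.075 SE had a limma unadjusted p of 0.0566, and 4 of 5 CLA pools lay above every control pool. It was higher in all 20 alternative fits (0.11 to 0.19), with an unadjusted p under 0.05 in 6 of them (lowest 0.0336, highest 0.155). MRPL10, which anchors the stalk, differed by 0.03 ± 0.090 SE, a sign that turned in 4 of 20 alternative fits, among them those without CLA pool 2 (-0.04) and without control pool 4 (-0.0045). MRPL12, the stalk protein itself, differed by -0.07 ± 0.12 SE and by 0.02 without CLA pool 3. The differences of MRPL10 and MRPL12 were smaller than their SE, and that of MRPL11 was not.

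Among the lowest large subunit members were MRPL13 (-0.06 ± 0.087 SE), the mitochondria-specific MRPL43 (-0.06 ± 0.073 SE) and MRPL18 (-0.05 ± 0.081 SE), each within its pool spread. MRPL23, at the exit of the tunnel, read 12.99, 12.98, 13.06, 13.27 and 13.27 in controls and 13.15, 12.92, 13.05, 13.03 and 13.17 with CLA. Its difference was -0.05 ± 0.084 SE, and its other probe sets differed by -0.10 and -0.12. CLA pool 2, high for most members, was the lowest pool of MRPL23. MRPL58, a peptidyl-tRNA hydrolase built into the large subunit that frees stalled chains, differed by 0.09 ± 0.10 SE, with 9.36 in CLA pool 2 as its highest value. The other 29 large subunit members lay between -0.05 and 0.13.

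The small subunit had 18 members higher and 5 lower; its median was 0.044, and 1 of 24 had an unadjusted p under 0.05. That was MRPS28, which read 7.22, 7.29, 7.15, 7.16 and 6.98 in controls and 7.37, 7.38, 7.32, 7.31 and 7.23 with CLA. CLA pool 5 alone lay below a control pool, that of number 2, and control pool 5 was the lowest of all. The difference of 0.16 ± 0.072 SE (limma unadjusted p = 0.0432) fell short of the threshold in 7 of the 10 fits without a pool, and the second MRPS28 probe set differed by -0.03 ± 0.165 SE.

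The largest differences in the small subunit were those of MRPS24, the counterpart of bacterial S3 (0.18 ± 0.090 SE), MRPS18B (0.18 ± 0.096 SE) and MRPS15 (0.17 ± 0.10 SE). None reached the unadjusted threshold in limma with all pools. Without CLA pool 2 the difference was 0.12 for MRPS24 and 0.0965 for MRPS18B, and without CLA pool 5 both had a limma unadjusted p under 0.05 (0.0233 and 0.0332). MRPS15 differed by 0.0835 without control pool 2 and by 0.24 without control pool 4 (limma unadjusted p = 0.0273). The MRPS15 CLA pools were very close to one another, 9.10 to 9.19, while its control pools ran from 8.60 to 9.22. MRPS18B had its highest value in CLA pool 2 (8.96) and its lowest in control pool 1 (8.35). MRPS18A, the paralog built into the large subunit, differed by 0.06 ± 0.10 SE and turned to -0.0065 without control pool 5. MRPS18C is not analysed here.

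On the other side, MRPS11 and MRPS31 each differed by -0.05, MRPS25 by -0.05, MRPS9 by -0.04 and MRPS35 by -0.03, each with an SE larger than its difference. The direction turned for MRPS31 without CLA pool 5 (0.0095), for MRPS9 without control pool 1 (0.0095) and for MRPS35 without CLA pool 3 (0.03). The remaining 12 small subunit members lay between 0.00 and 0.13.

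A pair of genes with MRPS symbols needs care. MRPS30 is a protein of the large subunit despite its symbol; it differed by 0.05 ± 0.092 SE, and by -0.0085 without CLA pool 2. MRPS36 is now known as a subunit of the 2-oxoglutarate dehydrogenase complex of the citric acid cycle. Its control pools were tight, 8.39 to 8.45, and its CLA pools read 8.73, 8.58, 8.51, 8.55 and 8.41. CLA pool 5 alone fell within the control range, and the difference was 0.14 ± 0.070 SE (limma unadjusted p = 0.0738).

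Large and small subunits differed little from each other. The large subunit had 32 of 43 members higher and a median of 0.058, against 18 of 24 and 0.044 in the small subunit. With MRPS30 and MRPS18A counted as large and MRPS36 in neither, the medians were 0.058 over 45 genes and 0.016 over 21. Without CLA pool 2 the medians were 0.012 and -0.0075, and without CLA pool 5 they were 0.104 and 0.0875. The small subunit median was also 0.029 without control pool 3 and 0.0048 without control pool 5. The mean deviation of the large subunit from the controls minus that of the small subunit was 0.020 higher with CLA; it ran from -0.046 to 0.050 in control pools and from -0.0018 to 0.036 in CLA pools. All CLA pools lay inside the control range, so no shift in the balance of the subunits was seen beyond the pool spread.

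Members with a bacterial counterpart and those found in mitochondria alone were also set side by side, a grouping added after the values were seen. Of 39 with a counterpart, 28 were higher (median 0.038), and of 28 without one, 22 were higher (median 0.061). MRPL15, MRPL19, MRPL32, MRPL36 and MRPS28 belong to the first kind and MRPL44 to the second. The difference between the kinds was not tested.

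The CLA pools differed from each other more than the diets did. Averaged over the 67 members, the deviation from the control mean was -0.020, 0.046, -0.022, 0.049 and -0.054 in control pools 1 to 5, and 0.093, 0.24, 0.024, 0.043 and -0.082 in CLA pools 1 to 5. CLA pool 2 was the highest and CLA pool 5 the lowest of all 10, so the extremes both lay within the CLA group. The mean difference between diets was 0.063, against an SD of 0.046 among control pools and 0.12 among CLA pools, and it was 0.020 without CLA pool 2. Large and small subunits followed the same course: CLA pool 2 stood at 0.25 for the large and 0.21 for the small subunit, and CLA pool 5 at -0.082 and -0.081.

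**Figure D3:**
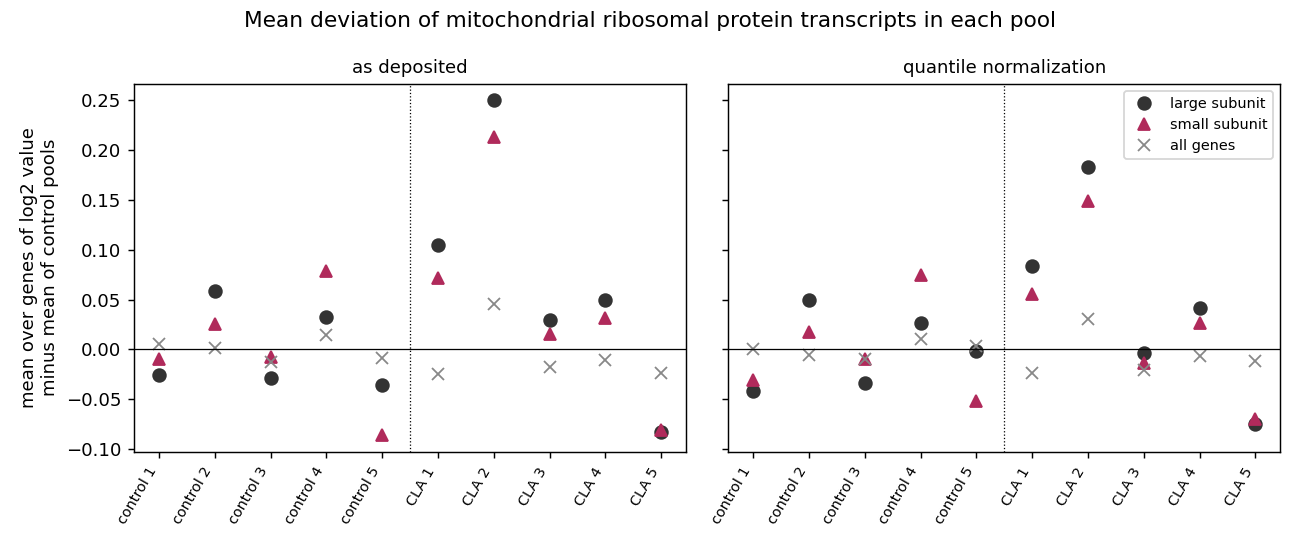
Deviation of the log2 value from the control average, averaged over genes (y axis), in each of the 10 pools, for the 43 large subunit genes, the 24 small subunit genes and all 9155 genes, from the values as deposited (left) and after quantile normalization (right). CLA pool 2 is the highest pool for both subunits, at 0.25 and 0.21 as deposited and 0.18 and 0.15 after quantile normalization.

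CLA pool 2 held the highest value of the 10 pools for 44 of 67 members (65.7%) and for 24.4% of all genes. CLA pool 5 held the lowest for 22 members (32.8%) and for 11.8% of all genes, while it did so for 56.6% of nuclear encoded respiratory chain subunits and 38.8% of cytosolic ribosomal proteins. After quantile normalization CLA pool 2 was highest for 33 members (49.3%, against 20.8% of all genes) and CLA pool 5 lowest for 19 (28.4%, against 10.1%). The array of CLA pool 2 had the widest spread of values (SD 2.43, against 2.34 to 2.41 on the other 9 arrays). It also had the lowest median (5.79, against 5.80 to 5.85). The part of this spread in the result was not tested beyond the normalizations given. CLA pool 2 and control pool 4 were the arrays least like the rest, and without both the members split 41 to 26 with a median of 0.010.

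**Figure D4:**
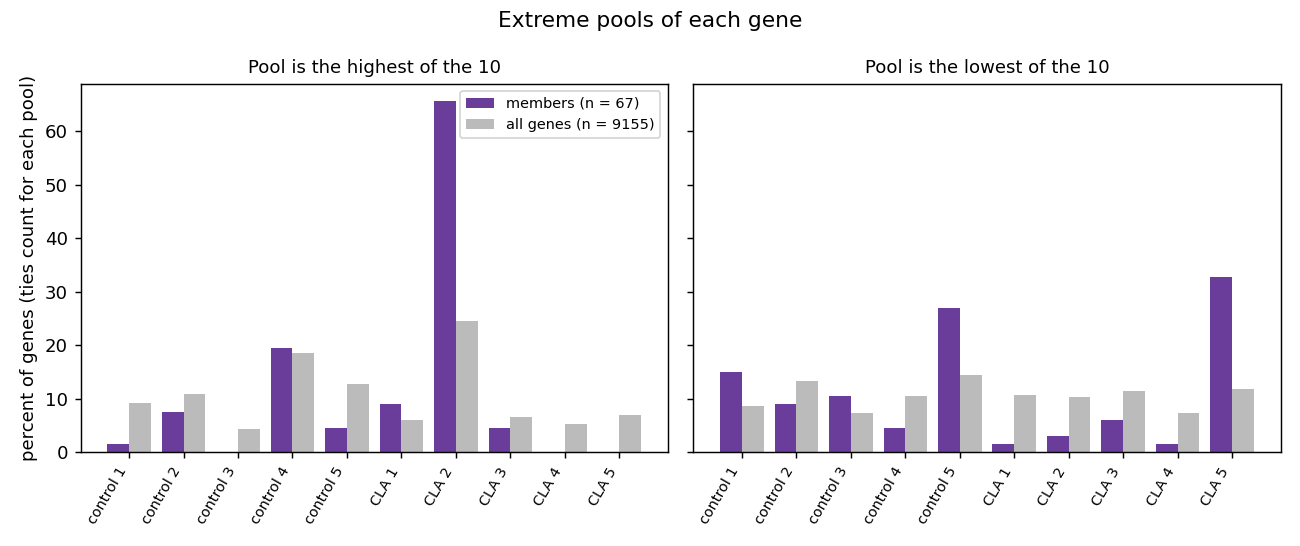
Percent of genes for which each pool held the highest (left) or the lowest (right) value of the 10, for the 67 members in purple and all 9155 genes in grey, with ties counted for each pool. CLA pool 2 is highest for 65.7% of members and 24.4% of all genes, and CLA pool 5 is lowest for 32.8% and 11.8%.

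Members varied together over the pools. The mean correlation between pairs of members over the 10 pools, after each group's mean was subtracted, was 0.39 (0.41 in the large and 0.36 in the small subunit), against 0.027 between pairs of all genes. It was 0.46 between cytosolic ribosomal proteins and 0.50 between nuclear encoded respiratory chain subunits, both above the value of the members. Pairs share their arrays, and without CLA pool 2 the values were 0.24 for members, 0.29 for the cytosolic and 0.44 for the respiratory set. After quantile normalization that of the members was 0.27. Against the mean of the other members, 32 of 67 had a correlation over 0.7 and 4 were below 0. MRPL38 (0.95), MRPL39 (0.93) and MRPL27 (0.93), named after their values were seen, followed it most closely. MRPL23 had a correlation of -0.47 with it, MRPS7 of -0.21, MRPL2 of -0.14 and MRPS15 of -0.012. MRPL32, the member of lowest p, had a correlation of 0.43, against a median of 0.69 over the members.

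Of 17 further probe sets of 14 members, 11 had a difference of the same sign as the chosen set and 6 the opposite. For MRPL46, a mitochondria-specific member, the chosen set was higher by 0.14 ± 0.082 SE and the dimmer one differed by -0.21 ± 0.089 SE (limma unadjusted p = 0.0363). Its dimmer set read 4.67, 4.90, 4.66, 4.77 and 4.62 in controls and 4.66, 4.64, 4.55, 4.27 and 4.45 with CLA. Only CLA pools 1 and 2 of that set reached into the control range, whereas in the chosen set CLA pools 1, 2 and 3 lay above every control pool. Other further sets under an unadjusted p of 0.05, named after their values were seen, were those of MRPL57 (0.23 ± 0.099 SE, chosen set 0.01) and MRPL20 (0.16 ± 0.071 SE, chosen set 0.10).

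**Figure D5:**
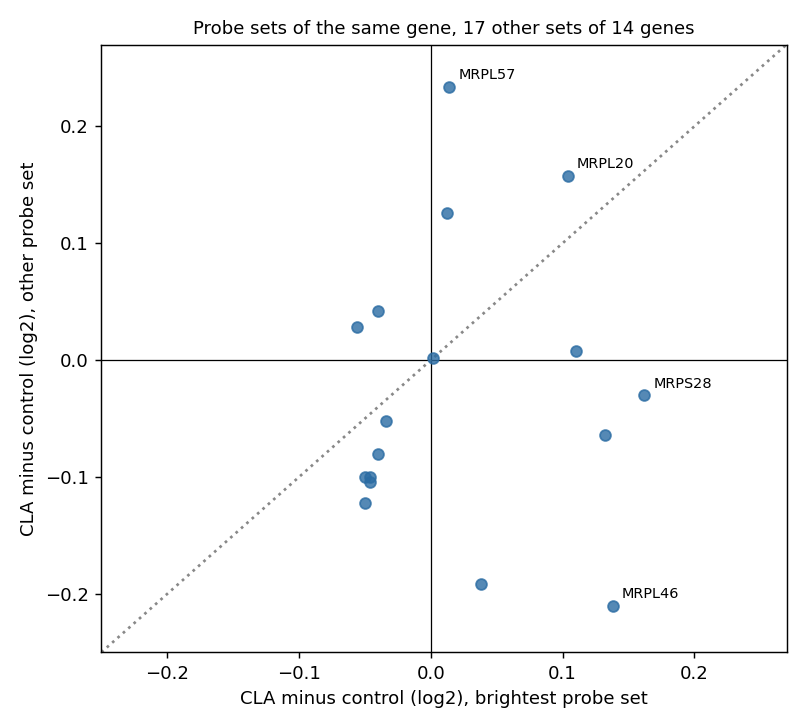
CLA minus control difference on the log2 scale of the probe set used for a gene (x axis) against that of each of its 17 further probe sets (y axis), for 14 members, with a dotted line of equality. MRPL46 and MRPS28 fall in the lower right, higher at the chosen set and lower at the other, and MRPL57 and MRPL20 lie above the line.

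Other parts of the machinery were read from lists of known genes. Of 5 measured mitoribosome proteins with other names, 2 were higher and 3 lower (median -0.07), and none had an unadjusted p under 0.05. The lowest p among them was that of CHCHD1, a small subunit protein (0.13 ± 0.076 SE). Of 15 factors that start, extend, end or recycle mitochondrial translation or modify its RNAs, 9 were higher and 6 lower (median 0.040). GFM2, the factor that splits the mitoribosome after translation, was the 1 gene with an unadjusted p under 0.05, at 5.90, 6.26, 5.71, 5.81 and 5.66 in controls and 5.77, 5.18, 5.55, 5.81 and 5.44 with CLA. Its lowest value was in CLA pool 2, where most mitoribosomal proteins were highest, and the difference was -0.32 ± 0.14 SE (limma unadjusted p = 0.0399, adjusted p = 0.546).

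Among 25 genes of mitoribosome assembly and ribosomal RNA maturation, 15 were higher and 9 lower (median 0.018), and 2 had an unadjusted p under 0.05. TFB1M, the methyltransferase that modifies the small subunit RNA, read 8.06, 8.30, 8.58, 8.11 and 8.27 in controls and 8.72, 8.69, 8.91, 8.44 and 8.69 with CLA. Only CLA pool 4 fell below a control pool, and the difference was 0.43 ± 0.11 SE (limma unadjusted p = 0.00216, adjusted p = 0.347). Its other probe sets differed by 0.00 and -0.02, so the difference rested on 1 of 3 sets. GTPBP10, a GTPase of large subunit assembly, differed by 0.29 ± 0.079 SE (limma unadjusted p = 0.00290, adjusted p = 0.368) and by 0.03 at its second set.

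Mitochondrial aminoacyl-tRNA synthetases load tRNAs with amino acids. Their list, which also held the amidotransferase subunits GATB and GATC, had 7 of 17 genes higher and 9 lower (median -0.024). SARS2, the seryl enzyme, differed by -0.20 ± 0.086 SE (limma unadjusted p = 0.0373). A list of mitochondrial transcription genes and nuclear regulators had 6 higher and 6 lower (median 0.0080). It also held the mitochondrial DNA replication genes POLG, POLG2, TWNK and SSBP1. YY1, a transcription factor of many nuclear genes for mitochondrial proteins, differed by 0.17 ± 0.065 SE (limma unadjusted p = 0.0204) and by 0.08 and 0.04 at its other sets. None of these genes passed limma with Benjamini-Hochberg adjustment. Mitochondrially encoded transcripts are not analysed here.

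The cytosolic ribosomal proteins (67 genes) had 36 higher and 31 lower, a median of 0.0080 and 0 genes at a limma unadjusted p under 0.05, also 0 after adjustment. Nuclear encoded respiratory chain subunits (76 genes) had 52 higher and 24 lower, a median of 0.033 and 2 genes at that p. Both splits moved with the scaling and with CLA pool 2. After quantile normalization the cytosolic set had 25 genes higher and 42 lower, with cyclic loess 17 and 50 (median -0.033), 53 and 14 with array medians subtracted, and 17 and 50 without CLA pool 2. The respiratory set split 35 to 40 under quantile scaling (median -0.0022), 37 to 39 with cyclic loess (-0.0073), 63 and 13 with array medians subtracted, and 33 and 43 without CLA pool 2 (-0.0090). The differences between these sets and the mitoribosomal proteins were not tested. CLA pool 2 was the highest pool for 70.1% of the cytosolic ribosomal and 53.9% of the respiratory genes, so high values in this pool were found in all 3 sets.

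The tissue carried the markers of liver: albumin (ALB) lay between 14.83 and 14.94 in every pool, and 9 of 11 measured hepatocyte markers were higher with CLA (median 0.042). All 9 T and NK cell markers were lower (median -0.19) and all 5 erythroid markers were lower (median -0.082), as were 6 of 7 macrophage markers (median -0.050). Within these lists only ZAP70 (1 of 9) and HBA (1 of 5) had a limma unadjusted p under 0.05, where 8.50% of all genes did. None passed adjustment. Erythroid control means were low, from 2.74 (SLC4A1) to 6.04 (HBB), and further HBB probe sets differed by -0.01, 0.24 and -0.11. Mean deviations of the T and NK markers ran from -0.24 to 0.26 in control pools and from -0.36 to -0.086 in CLA pools, and those of the erythroid markers from -0.13 to 0.13 and from -0.21 to 0.040. Endothelial, stellate, cholangiocyte and muscle markers had medians of -0.011, 0.024, 0.028 and -0.032. Among these, EMCN (1 of 8 endothelial) differed by 0.25 ± 0.088 SE (limma unadjusted p = 0.0163), and by -0.01 at its second probe set. LRAT (1 of 8 stellate) differed by 0.22 ± 0.087 SE (limma unadjusted p = 0.0291). Neither passed adjustment. In pooled biopsies fewer cells of a type and less RNA per cell cannot be told apart, and the part of these markers in the mitoribosomal values was not tested. The ranges of these averaged markers overlapped between diets. Of single markers, ZAP70 (1 of 9) and HBA (1 of 5) lay lower with CLA without overlap. The hepatocyte marker TF (1 of 11) lay higher without overlap. Over all genes, 2.17% lay apart in either direction. Array medians did not overlap, at 5.79 to 5.82 with CLA and 5.83 to 5.85 in controls.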

How the data were processed

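Liver RNA pools were measured on Affymetrix bovine arrays, 1 array per pool. The authors deposited log2 values, 1 per probe set and array, made with Affymetrix Expression Console 1.1 and RMA per the submitters' processing notes; the order and settings of the steps are not given in the sources used here. Values were used as deposited. Of 24128 probe sets, 112 controls were left out, and limma 3.58.1 (R 4.3.3; lmFit, then eBayes) was run on the other 24016 over all 10 arrays, without covariates. P-values were adjusted by the Benjamini-Hochberg method. Summaries used Python 3.11.15.

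Symbols came from the platform annotation: 13292 probe sets had 1 symbol, 86 several and 10638 none. The RefSeq table of ARS-UCD2.0 listed all 67 members under the same symbol. No genome build is given for the array, so no coordinates are printed, and sequences were not used here. The fit was tested on simulated data.

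Members, lists, tests and alternatives were chosen with earlier results of these data known. Named members were those with an unadjusted p under 0.05, those whose diets did not overlap, the 5 highest and 5 lowest per subunit, those with probe sets of opposite sign where 1 had an unadjusted p under 0.05, the stalk proteins, MRPL58, and MRPS18A, MRPS18B, MRPS30 and MRPS36. From the lists of other mitochondrial translation, assembly and transcription genes, those with an unadjusted p under 0.05 or, failing that, the lowest p were named. The main fit did not pair pools by number. Over all probe sets, deviations from group means of same-numbered pools correlated between -0.086 and 0.092, and those of other pool numbers between -0.32 and 0.30. Such correlations cannot show whether pools of the same number shared a step.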

Additional observations from a re-analysis of the deposited data

Results flagged for a closer look

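In 60 groups of 5 pools (26 named members and 4 pool averages, each in both diets), 4 had a pool set apart from the nearest other by more than 0.71 of the range of the group. Chance flags about 1 group in 20. For MRPL36, control pool 2 read 7.90 against 7.80 in the next control pool, and CLA pool 2 read 8.13 against 7.95. MRPS30 read 7.78 in control pool 5 against 7.95 in the next pool, and MRPS35 read 7.98 in CLA pool 3 against 8.26.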

How the results depend on the processing

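The median over members kept its sign in 17 of 18 alternatives, the exception being the fit without CLA pool 2. The fits without a single pool gave -0.0025 to 0.090 for all members, 0.012 to 0.104 for the large and -0.0075 to 0.0875 for the small subunit. The members with an unadjusted p under 0.05 numbered from 2 without CLA pool 1 or 2 to 11 without CLA pool 5. The share of all genes in those fits was 7.31%, 8.91% and 9.14%. After subtraction of array medians 10 members had such a p, against 8.86% of all genes. Without CLA pool 2 and control pool 4, a fit chosen after seeing the data, 3 did (4.48%, against 8.07% of all genes). With the pool number as a replicate block the count was 7 and the median 0.046, with no call changed after adjustment. The share of all genes in the block fit is not given here. No member passed the adjusted threshold in any fit. Over the 26 named members and 20 alternatives (520 values), 36 lost and 16 gained an unadjusted p under 0.05, and the mean of probe sets moved MRPL46 to -0.04. All 67 members remained without the dimmest 30% of probe sets. Detection calls were not used here, so how far each member lay above background is unknown, and 5 arrays per diet limit the precision.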
